A study of Mus musculus with 4 samples.

Results

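Replication-dependent histone genes lie in a few clusters of short genes that code for the linker histone H1 and the core histones H2A, H2B, H3 and H4. In GENCODE M21, 70 genes of the 54752 identifiers in the deposited table carry a symbol that starts with Hist1h, Hist2h, Hist3h or Hist4h. Of these, 35 had at least 5 counts summed over the 4 libraries and are described here. The remaining 35 had under 5 counts, 16 of them none at all. Just inside the threshold, Hist1h2ac had 1 and 1 counts in Carm1 mutant and 2 and 1 in wild type, and Hist2h2ab had 0 and 1 in Carm1 mutant and 3 and 1 in wild type. Just outside it, Hist1h1b had 1 and 2 counts in Carm1 mutant and 0 and 1 in wild type, and Hist1h2ad had 3 and 0 in Carm1 mutant and 0 and 1 in wild type.

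The libraries came from whole mouse heart at postnatal day 14, 2 from Carm1 mutant and 2 from wild type. Carm1 codes for an arginine methyltransferase that modifies histone H3 and transcriptional coactivators, and the title of the series concerns the maturation of the heart. The Carm1 allele, the sex of the animals, the promoter or cell type of any Cre, and whether the libraries of a group are separate animals are not stated in the labels. The p-values thus measure only how far these libraries differ, which may be technical.

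Library totals were 22217442 and 11677604 counts in Carm1 mutant and 21719161 and 20778420 counts in wild type. Carm1 itself had 897 and 432 counts in Carm1 mutant and 803 and 1025 in wild type, a log2 fold change of -0.54 (SE 0.19) with an adjusted p of 0.114 by edgeR's quasi-likelihood test, so reads of the gene were present in all libraries. Xist was at 323 and 288 CPM (counts scaled to the size of the library, with TMM factors) in Carm1 mutant and 0.686 and 0.765 in wild type, while the Y-linked Ddx3y was at 0.0398 and 0 CPM in Carm1 mutant and 32.9 and 37.8 in wild type. Genotype and sex therefore cannot be told apart in any comparison that follows. The wild-type libraries differed from each other more than the Carm1 mutant ones, with a chi-square per degree of freedom of 11.5 between the Carm1 mutant libraries and 51.1 between the wild-type libraries.

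DNA wraps around an octamer of the 4 core histones, and H1 binds the linker DNA between octamers. Cells make most histone protein in S phase, when new DNA has to be packed, from intronless genes that are transcribed together in nuclear bodies organised by NPAT. Their messages normally end not in a poly(A) tail but in a stem-loop that the stem-loop binding protein SLBP recognises, and they are destroyed when replication stops. Some of these genes can also give longer, polyadenylated messages, which differentiated cells that have left the cell cycle use. Heart muscle cells of the mouse stop dividing in the first weeks after birth.

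In these hearts the histone cluster genes were sparse, and most of their counts came from a few genes. The 35 genes held 6659 counts, and Hist1h1c, Hist1h2bc and Hist1h4h alone held 81.3% of them. Hist1h2aj, an H2A pseudogene next to the H2A genes of the main cluster, rose in Carm1 mutant and had no count in wild type, and a set of near-identical H2A genes rose when their counts were summed. Both reached the test through their Carm1 mutant counts alone. The 6 genes with the most counts, among them Hist1h4h, Hist2h2be and Hist3h2a, had negative log2 fold changes that did not pass the test, of which those of Hist1h1c and Hist1h2bc turned positive with library totals in place of TMM factors.

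By family, 3 genes coded for H1, 9 for H2A, 11 for H2B, 6 for H3 and 6 for H4, with 2 pseudogenes (Hist1h2aj and Hist3h2bb-ps) counted in their families. On GRCm38, 27 lay on chromosome 13, 4 on chromosome 3, 3 on chromosome 11 and 1 on chromosome 6. Summed over all 35, the level was 72.7 and 82.7 CPM in Carm1 mutant and 119 and 82.8 CPM in wild type. The difference between the group means, 77.7 ± 7.02 CPM in Carm1 mutant and 101 ± 25.8 CPM in wild type (SD, n = 2 each), was smaller than the spread between the wild-type libraries, and it rested on wild type replicate 1. As a share of the library total with no TMM factor, the sum was 0.00822% and 0.00963% in Carm1 mutant and 0.00961% and 0.00781% in wild type, so on that scale the groups overlapped. Wild type replicate 1 also stood apart in how the deviation of a gene from its mean over all libraries went with transcript length. Spearman's rho across genes, which are not independent replicates, was 0.204 and -0.00347 in Carm1 mutant and -0.337 and 0.268 in wild type. The deviations share that mean, so these values are not independent of each other. The part of transcript length in the histone values was not tested.

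The 16-base stem-loop that marks a replication-dependent message was searched for in the annotated transcripts (GENCODE M21), to see whether the name of the group fits its members. It was found in 27 of the 35 genes, in 6 forms that share a paired stem and differ mainly in the loop. They are printed 5′ to 3′ as DNA letters with the loop in capitals, since these letters are the mark by which the messages are processed.
17 genes of H1, H2A, H2B and H3: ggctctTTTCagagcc
Hist1h4d, Hist1h4h and Hist4h4: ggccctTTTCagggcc
Hist1h2bb, Hist1h3e and Hist1h3f: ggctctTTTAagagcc
Hist1h4i and Hist2h4: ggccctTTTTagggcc
Hist1h4a: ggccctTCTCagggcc
Hist1h3g: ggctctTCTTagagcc
All 6 H4 genes carried the ggccct stem, and the stem ggctct was found in the other families. The 8 genes without a match in their annotated transcripts included Hist1h2bc, Hist2h2be and Hist1h2aj, which together with the other 5 held 2292 counts. Hist1h2bc, with 1881 counts, is annotated with 2 exons. The transcripts of Hist1h3i (411 bases, 408 of them coding) and Hist1h2af (399 bases, 390 coding) leave no room for the 16 bases after the coding sequence. A missing match therefore does not show that a gene lacks the stem-loop.

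Many annotated transcripts ran on past the stem-loop. In 19 genes at least 100 bases followed it, and these held 3332 counts, while the 8 genes with under 100 bases held 1035. Hist1h1c continued for 840 bases, Hist3h2a for 1643 and Hist1h2be for 1861, whereas Hist1h4h continued for 46 and Hist1h2ag for 23. A polyadenylation signal (AATAAA or ATTAAA in the last 40 bases) was present in 12 genes, among them Hist1h1c, Hist1h4h, Hist2h2be and Hist3h2a, and these 12 held 65.5% of the counts. Their sum was 46.3 and 48.6 CPM in Carm1 mutant and 82.1 and 56.2 CPM in wild type. The files give 1 count per gene, so which end of a message was sequenced was not measured. The labels do not state whether poly(A) RNA was selected. Of 9 RNAs without a poly(A) tail that were matched, such as Rmrp and Rn7sk, 7 had no count, and the whole list held 7 and 6 counts in Carm1 mutant and 4 and 8 in wild type. The part that the choice of RNA had in the histone levels was not tested.

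Only 11 of the 35 genes passed the filter on low counts and were tested, because 23 of the 24 others had at most 21 counts in all. Of the 11, 7 reached the filter's level, 0.471 CPM of the library total, in all libraries, and 4 (Hist1h2aj, Hist1h2ag, Hist1h4i and Hist2h3c2) only in the Carm1 mutant ones. These 4 had to be higher in Carm1 mutant to be tested, so the split of the 11 by direction is partly fixed by the filter. edgeR's quasi-likelihood test, adjusted by Benjamini-Hochberg over 15283 genes, called 1 of the 11 higher in Carm1 mutant, Hist1h2aj, where 2.79% of all genes tested were called higher. It called none lower, where 4.58% of all genes tested were, and 5 of the 11 had an unadjusted p under 0.05, 3 of them lower, where 27.8% of all genes had, 14.7% lower. DESeq2's Wald test and limma-voom each called 1 lower. The median log2 fold change of the 11 was -0.32, against 0.02 over all genes tested and -0.11 over the 1428 tested genes with a longest transcript under 1000 bases. With library totals in place of TMM factors the median of all genes moved to 0.41 and that of the 11 to 0.089, which is -0.32 relative to all genes. The groups did not overlap in 9 of the 11, 4 higher and 5 lower. They did not overlap in 59% of all genes tested, 30.3% higher and 28.7% lower, so that count is no result about the histones. The calls depended on the wild-type libraries. Without wild type replicate 2, 5 of the genes were called lower (35.5% of all genes were then called in either direction), and without wild type replicate 1 only Hist2h2be was (14.3% of all genes called). Without the count filter 3 were called lower and 2 higher, where 9.94% of 26469 genes were called. In either direction, 9.13% of all genes were called with library totals, 7.38% with limma-voom, 11.8% with the Wald test, 8% with the replicate block, 2.67% without Carm1 mutant replicate 1 and 2.39% without Carm1 mutant replicate 2.

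**Figure D1:**
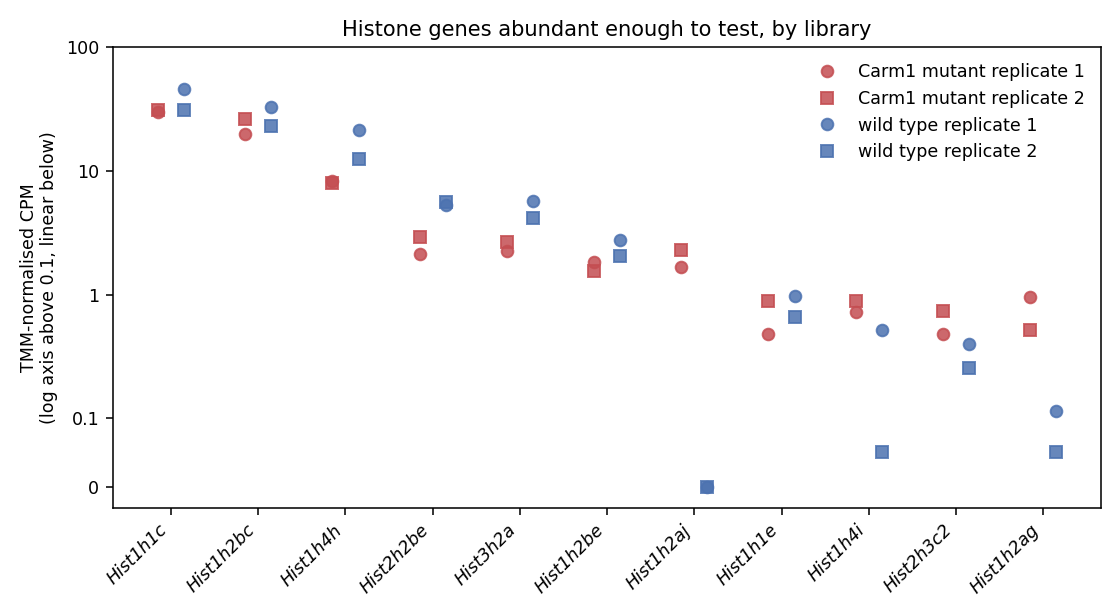
TMM-normalised CPM (log axis above 0.1, linear below) of the 11 histone genes that passed the count filter, with 1 point per library, Carm1 mutant in red and wild type in blue. Hist1h4h, Hist2h2be and Hist3h2a lie lower in both Carm1 mutant libraries than in both wild-type libraries, and Hist1h2aj has 42 and 31 counts in Carm1 mutant and 0 in both wild-type libraries.

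The linker histone genes were led by Hist1h1c, which codes for H1.2 and lies on chromosome 13 at 23738808 to 23740367 on the plus strand. It had 757 and 427 counts in Carm1 mutant and 801 and 616 in wild type, or 30.2 and 31.4 CPM in Carm1 mutant and 45.8 and 31.4 CPM in wild type. Both Carm1 mutant libraries and wild type replicate 2 lay at nearly the same level, and only wild type replicate 1 stood above them. Its log2 fold change was -0.33 (SE 0.22, adjusted p 0.380, edgeR), and with library totals in place of TMM factors it was 0.086. Hist1h1e, which codes for H1.4, had 12 and 12 counts in Carm1 mutant and 17 and 13 in wild type, a log2 fold change of -0.32 (SE 0.55, adjusted p 0.747, edgeR) that was 0.089 with library totals. Hist1h1d, coding for H1.3, had 7 and 4 counts in Carm1 mutant and 8 and 7 in wild type and was not tested. All 3 had ratios per effective library below 1, which for Hist1h1c and Hist1h1e depended on the TMM factors, and neither of the 2 tested passed.

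Among the H4 genes, Hist1h4h on chromosome 13 (23531050 to 23531519, plus strand) was by far the most abundant. Per kilobase of exon it was at 17.7 and 16.9 CPM in Carm1 mutant and 45.6 and 26.4 CPM in wild type, and Hist1h1c was at 19.3 and 20.1 CPM in Carm1 mutant and 29.3 and 20.1 CPM in wild type, so that Hist1h4h was the lower of the 2 in both Carm1 mutant libraries and the higher in both wild-type ones. It had 209 and 108 counts in Carm1 mutant and 375 and 243 in wild type. On the CPM scale this was 8.33 and 7.94 in Carm1 mutant and 21.4 and 12.4 in wild type, so that both Carm1 mutant libraries were low and close together while the wild-type libraries were higher and apart. The log2 fold change was -1.05 (SE 0.28) with an adjusted p of 0.0624 by edgeR. Over the alternatives the adjusted p ranged from 2.5e-04 without wild type replicate 2 (log2 fold change -1.43) to 0.203 without Carm1 mutant replicate 2, and the log2 fold change was -0.62 without wild type replicate 1. Hist1h4i, which lies beside Hist1h2ag, had 18 and 12 counts in Carm1 mutant and 9 and 1 in wild type, a log2 fold change of 1.51 (SE 0.82, adjusted p 0.271, edgeR) that was 3.78 without wild type replicate 1 and 0.57 without wild type replicate 2. The fold changes of these H4 genes differed in sign, and the H4 sum followed Hist1h4h at 9.60 and 9.34 CPM in Carm1 mutant and 22.3 and 12.7 CPM in wild type. The other 4 H4 genes had 6 to 11 counts each.

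The H3 genes were the least abundant family, with a sum of 1.04 and 1.84 CPM in Carm1 mutant and 1.26 and 1.53 CPM in wild type. Hist2h3c2 on chromosome 3 was the only one tested. It had 12 and 10 counts in Carm1 mutant and 7 and 5 in wild type, a log2 fold change of 0.84 (SE 0.63, adjusted p 0.421, edgeR). Hist1h3f, the next in abundance, had 5 and 4 counts in Carm1 mutant and 4 and 8 in wild type, so that its groups overlapped. Hist1h3e had 1 and 0 counts in Carm1 mutant and 4 and 5 in wild type, a ratio per effective library of 0.107 with an exact 95% interval of 0.00243 to 0.769. That interval, like every interval given here, covers counting error only and not the spread between hearts. The remaining 3 had ratios between 0.685 and 1.20 with intervals that include 1.

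H2B held the second most abundant gene, Hist1h2bc, at 498 and 356 counts in Carm1 mutant and 577 and 450 in wild type. At 19.8 and 26.2 CPM in Carm1 mutant and 33.0 and 23.0 CPM in wild type, the groups overlapped. Its log2 fold change was -0.28 (SE 0.24, adjusted p 0.482, edgeR), and it was 0.13 with library totals. Hist2h2be is the H2B gene of the chromosome 3 cluster (96221119 to 96223738, plus strand), and its whole annotated transcript is unique among mouse genes. It had 53 and 40 counts in Carm1 mutant and 93 and 110 in wild type, or 2.11 and 2.94 CPM in Carm1 mutant and 5.31 and 5.61 CPM in wild type. Both Carm1 mutant libraries were low, and the gap between groups was wider than the distance between replicates. The log2 fold change was -1.13 (SE 0.29) with an adjusted p of 0.0569 by edgeR. Over the alternatives the adjusted p ranged from 0.00693 without the count filter to 0.462 without Carm1 mutant replicate 1 (log2 fold change -0.89). Hist1h2be had 46 and 21 counts in Carm1 mutant and 48 and 40 in wild type (log2 fold change -0.48, SE 0.36, adjusted p 0.417, edgeR), and its annotated transcript overlaps Hist1h1e on the same strand, so reads there could belong to either gene. Of the 8 untested H2B genes, Hist3h2ba had 3 and 1 counts in Carm1 mutant and 8 and 5 in wild type, and Hist1h2bf had 3 and 5 in Carm1 mutant and 1 and 1 in wild type. The H2B sum was 25.1 and 32.1 CPM in Carm1 mutant and 42.2 and 31.5 CPM in wild type, which overlap.

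Among the H2A genes the most abundant one had a ratio of Carm1 mutant to wild type below 1. Of the other 8, 6 had a ratio above 1 and 2, Hist1h2ac and Hist2h2ab, had a ratio below 1. Hist3h2a, the H2A gene of the chromosome 11 cluster (58954685 to 58956830, plus strand), had 57 and 36 counts in Carm1 mutant and 100 and 81 in wild type. Its CPM of 2.27 and 2.65 in Carm1 mutant lay under the 5.71 and 4.13 in wild type, with a log2 fold change of -1.01 (SE 0.31, adjusted p 0.0827, edgeR). Part of its annotated transcript overlaps Trim17 on the same strand, which itself had 5 and 2 counts in Carm1 mutant and 1 and 4 in wild type. The other 8 H2A genes together were at 3.86 and 4.19 CPM in Carm1 mutant and 0.571 and 0.408 CPM in wild type, from 97 and 57 counts in Carm1 mutant and 10 and 8 in wild type. With Hist1h2aj left out as well, the remaining 7 were at 2.19 and 1.91 CPM in Carm1 mutant and 0.571 and 0.408 CPM in wild type. These groupings were made after the values were seen and are given without a test.

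Hist1h2aj, on chromosome 13 at 21721457 to 21721808 on the minus strand, is annotated as an unprocessed pseudogene, a copy that arose by duplication of a gene and not from its message. It had 42 and 31 counts in Carm1 mutant, or 1.67 and 2.28 CPM, and none in either wild-type library. The level was at least 23.3-fold higher in Carm1 mutant when set against a floor of 3 counts over both wild-type libraries, with an adjusted p of 0.0120 by edgeR. Since the gene passed the count filter only through the Carm1 mutant libraries, it had to differ to be tested, and the adjusted p of 6.91e-12 to 0.0151 over 11 alternatives is no independent support. In the whole table, 14 genes were at 0 in wild type with at least 20 counts in Carm1 mutant, and 4 were at 0 in Carm1 mutant with at least 20 in wild type. The value carries the limit that near-identical copies impose: of the 303 stretches of 50 bases in its transcript, 21 (6.93%) occur in no other mouse gene. Its nearest copy is Hist1h2ai, whose coding sequence is 97.7% identical to the transcript of the pseudogene where they align. Hist1h2ai had no count in any library.

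Hist1h2ag showed the same direction at fewer counts. It had 24 and 7 counts in Carm1 mutant and 2 and 1 in wild type, or 0.956 and 0.515 CPM in Carm1 mutant and 0.114 and 0.0510 CPM in wild type. Both Carm1 mutant libraries were above both wild-type libraries, with a ratio per effective library of 9.91 (exact 95% interval 3.09 to 50.6). The adjusted p was 0.0540 by edgeR, and 0.0105 to 0.117 over the alternatives in which it was tested. It, too, passed the count filter only through the Carm1 mutant libraries. Of the 6 untested H2A genes 4 had a ratio above 1. Hist1h2ao had 10 and 6 counts in Carm1 mutant and 1 and 2 in wild type (ratio 5.11, interval 1.46 to 27.4). Hist1h2ae had 5 and 6 counts in Carm1 mutant and 1 and 1 in wild type (ratio 5.27, interval 1.15 to 49.0). Hist1h2af had 7 and 4 counts in Carm1 mutant and 0 in both wild-type libraries. It was 3.52-fold higher against the same floor, with an exact interval that started at 2.41. Hist1h2ap had 8 and 1 counts in Carm1 mutant and 1 and 2 in wild type. All of these lie in the chromosome 13 cluster, and single values among them share reads to an extent that the files do not show. Hist1h2aj, Hist1h2ag, Hist1h2ao, Hist1h2ae, Hist1h2af and Hist1h2ap each overlap an annotated miRNA gene on the opposite strand. These miRNA genes had no count in any library, but whether the counting used strand is not stated, so reads of either strand cannot be told apart.

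**Figure D2:**
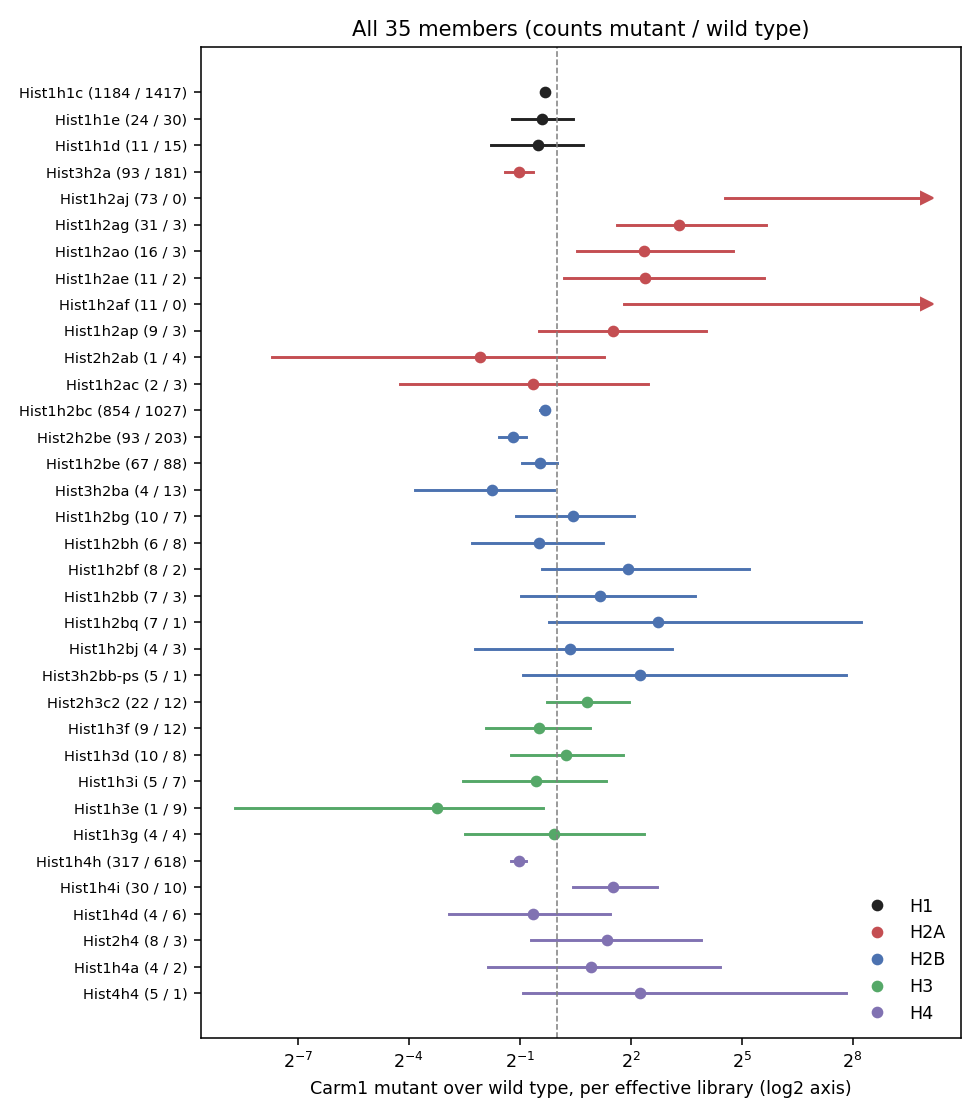
Ratio of Carm1 mutant to wild type per effective library (log2 axis) for all 35 histone genes, with exact 95% intervals for counting error, ordered by family and abundance, and with the summed counts of Carm1 mutant and wild type after each name. For the 2 genes without a wild-type count no interval is drawn. Their lines run from the level against a floor of 3 wild-type counts (23.3 and 3.52) to an arrow. The H2A genes from Hist1h2aj to Hist1h2ap lie right of 1, and Hist3h2a, Hist2h2be and Hist1h4h lie near a ratio of 0.5 (0.493, 0.439 and 0.492).

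The labels do not state how the authors counted reads with several matches, and 19 of the 35 genes have at least 1 copy whose coding sequence is 98% identical or more. In 13 genes under 50% of 50-base stretches were unique, and in 5 genes under 10%. Hist1h2ao and Hist1h2ap have identical coding sequences. For that reason the counts of near-identical genes were also summed before the fit, so that the division of reads within a set does not bear on the value. Reads left out by the authors because they match several genes would still be missing. Hist1h2aj, 97.7% identical to its nearest copy, fell under the 98% and stayed outside the H2A set. The division of reads between it and that set can thus still bear on both values. The H2A set of 11 genes (Hist1h2ab to Hist1h2ai, Hist1h2an, Hist1h2ao and Hist1h2ap, without Hist1h2aj) had 60 and 26 counts in Carm1 mutant and 7 and 8 in wild type. The summed level of 2.39 and 1.91 CPM in Carm1 mutant stood above 0.400 and 0.408 CPM in wild type, and the replicates lay close together in both groups. The log2 fold change was 2.41 (SE 0.45) with an adjusted p of 0.0246 by edgeR, where 2.81% of all genes were called higher and 7.41% in either direction. The set reached the count filter only in the Carm1 mutant libraries, so it had to differ to be tested. Over the alternatives the adjusted p ranged from 9.2e-05 to 0.172, the highest without Carm1 mutant replicate 1 (log2 fold change 2.22). The 12 H2B copies had 565 and 395 counts in Carm1 mutant and 634 and 503 in wild type (log2 fold change -0.27, adjusted p 0.499, edgeR), and the 9 H3 copies of chromosome 13 had 16 and 17 in Carm1 mutant and 15 and 27 in wild type (log2 fold change -0.31, adjusted p 0.739, edgeR). Unique stretches made up 91.5% in Hist1h1c, 69.4% in Hist1h2bc, 54.2% in Hist1h4h and 68.5% in Hist3h2a, but high shares were also found in genes with few counts, 97.7% in Hist1h1d with 26 counts and 99.0% in Hist2h4 with 11.

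**Figure D3:**
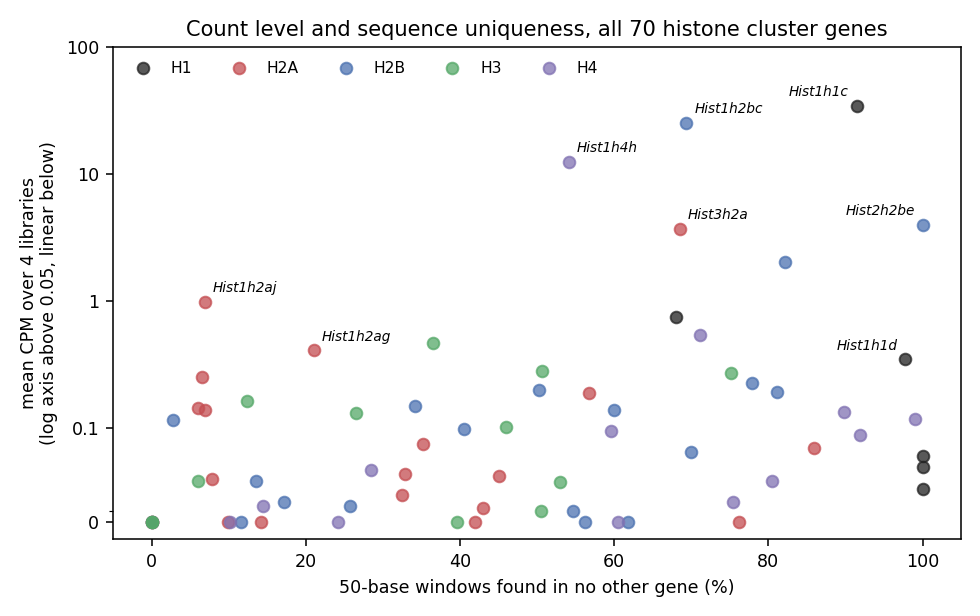
Mean TMM-normalised CPM over the 4 libraries (log axis above 0.05, linear below) against the percentage of 50-base transcript stretches found in no other gene, with 1 point for each of the 70 histone cluster genes, coloured by family. Hist1h1c, Hist1h2bc and Hist1h4h lie above 50% unique stretches, while Hist1h2aj and Hist1h2ag lie at 6.93% and 21.1%.

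Grouped by abundance after the values were seen, and so with no test, the genes gave sums that differed in direction on the TMM scale. The 6 genes with at least 100 counts were at 64.5 and 72.7 CPM in Carm1 mutant and 114 and 78.6 CPM in wild type. The other 29 were at 8.21 and 10.003 CPM in Carm1 mutant and 5.31 and 4.18 CPM in wild type. Most of that difference came from the 8 H2A genes other than Hist3h2a, which are among the 29. These 8 were at 3.86 and 4.19 CPM in Carm1 mutant and 0.571 and 0.408 CPM in wild type. The higher sum is therefore not a trait of the sparse histone genes in general. The 6 abundant genes held 88.7% and 87.9% of the histone cluster counts in Carm1 mutant and 95.5% and 94.9% in wild type, a share that needs no scaling between libraries.

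**Figure D4:**
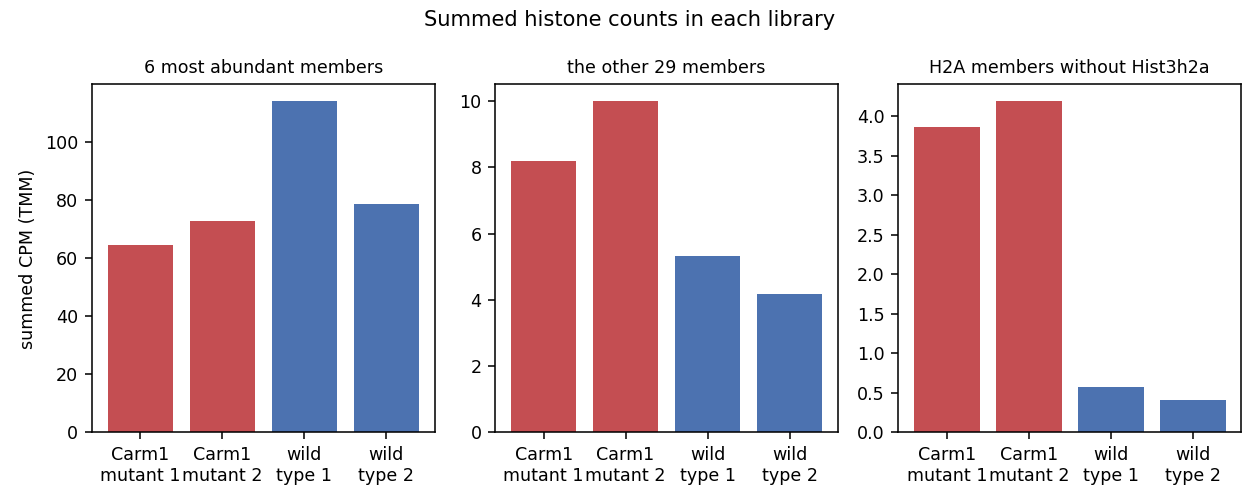
Summed TMM-normalised CPM in each library for the 6 most abundant histone genes, the other 29, and the H2A genes other than Hist3h2a, with Carm1 mutant in red and wild type in blue and each panel starting at 0. The first sum is 64.5 and 72.7 in Carm1 mutant and 114 and 78.6 in wild type, and the last is 3.86 and 4.19 in Carm1 mutant and 0.571 and 0.408 in wild type.

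H2A and H2B genes often sit back to back and share the stretch between their starts. In GENCODE M21, 14 such pairs had gaps of 172 to 305 bases, and 9 pairs had at least 5 counts in either gene. The partners differed widely in level. Hist1h2bc had 1881 counts in all, while Hist1h2ac, which starts 250 bases away on the other strand, had 5. On chromosome 3, Hist2h2be had 296 counts and its partner Hist2h2ac had 3. Hist1h2aj, which rose, and Hist1h2ag, Hist1h2ao and Hist1h2ae, which did not pass or were not tested, had H2B partners with few counts, 0 for Hist1h2bm beside Hist1h2aj, 7 for Hist1h2bj beside Hist1h2ag (2 and 2 in Carm1 mutant, 2 and 1 in wild type), 8 for Hist1h2bq beside Hist1h2ao (3 and 4 in Carm1 mutant, 0 and 1 in wild type) and 17 for Hist1h2bg beside Hist1h2ae (9 and 1 in Carm1 mutant, 2 and 5 in wild type).

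**Figure D5:**
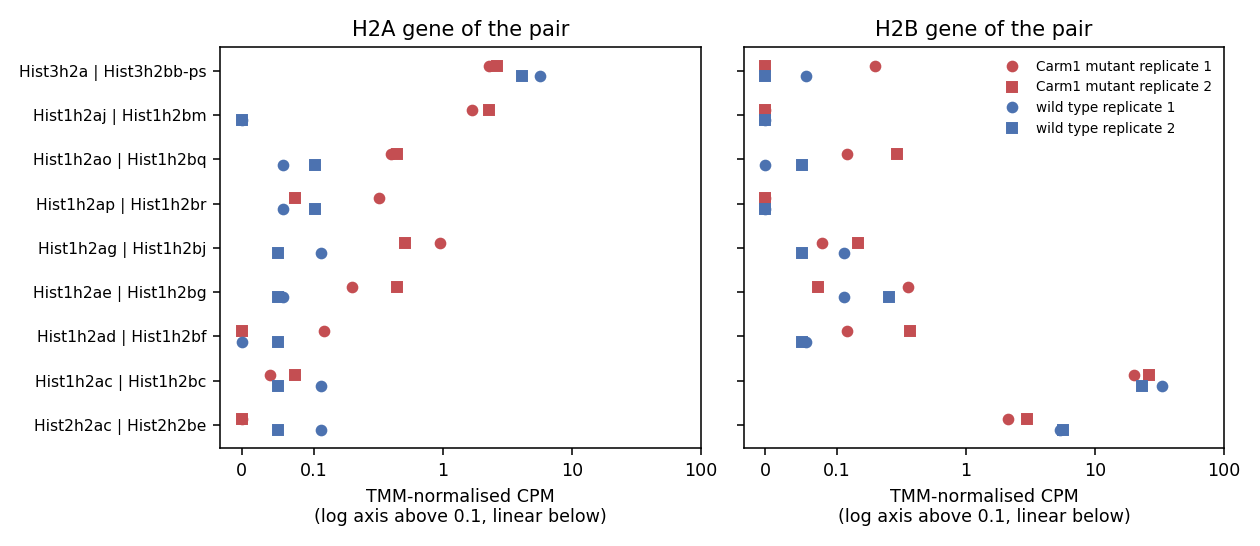
TMM-normalised CPM per library (log axis above 0.1, linear below) of the H2A gene (left) and the H2B gene (right) of the 9 back-to-back pairs with at least 5 counts in either gene, with Carm1 mutant in red and wild type in blue. In the pair of Hist1h2ac and Hist1h2bc the H2A gene has 5 counts and the H2B gene 1881, and in that of Hist1h2aj and Hist1h2bm the H2B gene has none.

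Promoters from RefSeq (GRCm38.p6, 250 bases before to 50 after the start) were matched for 28 of the 35 genes and searched on both strands. Hist1h2aj, Hist1h2bc, Hist2h2be, Hist1h2ap, Hist1h3f, Hist2h4 and Hist3h2bb-ps were not matched, so the shares leave them out. CCAAT, the box bound by NF-Y, was present in 25 of 28 (89.3%) and in 37.8% of all 27025 promoters. TATAAA was present in 14 of 28 (50%) and in 14.1% of all. The octamer ATTTGCAT, known from H2B promoters, was present in 6 (21.4%), 3 of H2A and 3 of H2B genes, and in 1.74% of all. AAACACA, the H1 box, was present in all 3 H1 genes, in no other promoter of the 28, and in 7.25% of all promoters. It did not separate the families among cluster genes under 5 counts. There the H2A genes Hist1h2ab and Hist1h2aa and the H2B genes Hist1h2ba and Hist1h2bm held it. Of the H1 genes there, Hist1h1b and Hist1h1t held it and Hist1h1a did not. A match describes the letters and not binding. Windows of back-to-back genes overlap, so 1 site can be counted for both, as is the octamer of Hist1h2ae and Hist1h2bg. The 28 windows are thus not all separate promoters. The promoters printed below are those of Hist1h2ag (the H2A gene with a ratio of 9.91), Hist1h2ac (whose window spans the whole gap to Hist1h2bc), Hist1h1c (the most abundant gene) and Hist1h4h (the H4 gene with the most counts), read 5′ to 3′ on the gene's strand with motif matches in capitals. ATTGG and ATGCAAAT are CCAAT and the octamer on the opposite strand.
Hist1h2ag, chr13:22042900-22043199, minus strand: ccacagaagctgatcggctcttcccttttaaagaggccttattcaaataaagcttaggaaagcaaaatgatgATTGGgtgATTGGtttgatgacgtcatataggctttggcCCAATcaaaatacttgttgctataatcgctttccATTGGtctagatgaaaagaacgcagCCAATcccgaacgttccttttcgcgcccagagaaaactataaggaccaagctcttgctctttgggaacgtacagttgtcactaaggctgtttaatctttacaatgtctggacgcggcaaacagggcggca
Hist1h2ac, chr13:23683910-23684209, minus strand: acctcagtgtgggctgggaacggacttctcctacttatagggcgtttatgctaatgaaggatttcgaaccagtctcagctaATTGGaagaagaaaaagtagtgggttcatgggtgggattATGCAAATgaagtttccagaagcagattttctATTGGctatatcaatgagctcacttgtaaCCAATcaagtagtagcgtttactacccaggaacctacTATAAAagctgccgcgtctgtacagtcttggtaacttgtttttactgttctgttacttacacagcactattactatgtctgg
Hist1h1c, chr13:23738557-23738856, plus strand: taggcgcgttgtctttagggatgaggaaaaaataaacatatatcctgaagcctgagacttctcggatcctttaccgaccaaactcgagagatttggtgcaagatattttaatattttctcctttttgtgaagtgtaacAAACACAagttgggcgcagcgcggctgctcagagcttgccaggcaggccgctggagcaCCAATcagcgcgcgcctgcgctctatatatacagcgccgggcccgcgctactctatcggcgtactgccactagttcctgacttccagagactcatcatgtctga
Hist1h4h, chr13:23530794-23531093, plus strand: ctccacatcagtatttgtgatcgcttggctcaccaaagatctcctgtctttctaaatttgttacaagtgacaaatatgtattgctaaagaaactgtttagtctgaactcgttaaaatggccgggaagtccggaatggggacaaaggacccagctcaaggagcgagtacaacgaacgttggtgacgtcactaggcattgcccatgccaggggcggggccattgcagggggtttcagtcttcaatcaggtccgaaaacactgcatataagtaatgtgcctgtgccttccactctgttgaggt
Hist1h2ag holds 5 CCAAT boxes. The stretch between Hist1h2ac and Hist1h2bc holds 3 CCAAT boxes, 1 octamer and 1 TATAAA, which lies on the side of Hist1h2ac, the partner with 5 counts. None of the 4 motifs is in the window of Hist1h4h.

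Genes that make, use or replace these histones were taken from lists. Of 16 genes listed as replication-independent histones, a class that replaces the S-phase forms outside replication, 12 were tested. Among them 2 rose in Carm1 mutant and none fell, with a median log2 fold change of 0.15. Of all genes tested, 2.79% were called higher and 7.37% in either direction. H2afx, coding for the DNA-damage variant H2A.X, was at 29.6 and 25.2 CPM in Carm1 mutant and 13.9 and 12.9 CPM in wild type (log2 fold change 1.03, SE 0.19, adjusted p 0.0252, edgeR). H1fx, coding for the linker variant H1.X, was at 11.3 and 9.64 CPM in Carm1 mutant and 4.23 and 4.59 CPM in wild type (log2 fold change 1.25, SE 0.23, adjusted p 0.0244, edgeR). Summed, the list was at 613 and 642 CPM in Carm1 mutant and 677 and 521 CPM in wild type, and the groups overlapped.

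Of 36 genes for transcription and processing of histone messages, 35 were tested, 2 rose and none fell, with a median of 0.05. Beside the 2 of 35, and the 2 of 25 chaperones and 11 of 40 S phase genes below, 2.79% of all genes tested were called higher. Whether these lists differ from that share was not tested. Ccna2, coding for the S-phase cyclin A2, was at 16.3 and 20.01 CPM in Carm1 mutant and 4.23 and 3.37 CPM in wild type (log2 fold change 2.25, SE 0.24, adjusted p 0.00624, edgeR). E2f1, a transcription factor of the G1 to S transition, was at 7.81 and 9.34 CPM in Carm1 mutant and 2.11 and 3.16 CPM in wild type (log2 fold change 1.69, SE 0.29, adjusted p 0.0205, edgeR). Slbp and Npat, named above for their roles, did not pass, with log2 fold changes of -0.14 (adjusted p 0.707, edgeR) and 0.20 (adjusted p 0.587, edgeR). Of 25 histone chaperones, which carry new histones to DNA, 2 rose and none fell (median 0.15). These were Chaf1b, a subunit of the replication-coupled chaperone CAF-1, at 5.02 and 4.93 CPM in Carm1 mutant and 1.14 and 1.22 CPM in wild type (log2 fold change 2.06, SE 0.31, adjusted p 0.0141, edgeR), and Mms22l, which acts at stalled replication forks, at 3.23 and 3.02 CPM in Carm1 mutant and 0.743 and 1.22 CPM in wild type (log2 fold change 1.65, SE 0.39, adjusted p 0.0432, edgeR). Of 40 tested S phase genes, 11 rose and none fell, with a median of 0.66. The S phase genes were known from earlier results of these data to be higher and are no independent support. Rad51ap1, Rrm2, E2f1 and Uhrf1 had the smallest adjusted p among them, with log2 fold changes of 2.01, 1.43, 1.69 and 1.90. These counts depended on single libraries. Without wild type replicate 2, where 35.5% of all genes were called, 2 of the replication-independent histone genes were called higher and 2 lower, 7 of the message genes higher and 6 lower, 7 of the chaperones higher and 4 lower, and 19 of the S phase genes higher and 2 lower. Without wild type replicate 1, where 14.3% of all genes were called, it was 5 higher and 0 lower, 3 higher and 2 lower, 4 higher and 2 lower, and 16 higher and 0 lower in the same order. Without Carm1 mutant replicate 1 none of the replication-independent histone genes was called, and without Carm1 mutant replicate 2 only 3 of the S phase genes were, all higher.

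Cell types were not separated in these whole hearts, so fewer cells of a type and less RNA per cell cannot be told apart. Sums of cell type markers differed between the groups to unequal extents, and 1 marker was called, Postn. All 5 cardiomyocyte markers (Myh6, Tnnt2, Actn2, Ryr2 and Tnni3) had negative log2 fold changes and none was called, with sums of 23529 and 23933 CPM in Carm1 mutant and 42458 and 42956 CPM in wild type. The 5 fibroblast markers summed to 4654 and 4941 CPM in Carm1 mutant and 2747 and 3202 CPM in wild type, with 1 called higher, Postn. The endothelial sums were 1488 and 1287 CPM in Carm1 mutant and 861 and 1136 CPM in wild type, the leukocyte sums 52.5 and 58.0 CPM in Carm1 mutant and 46.4 and 47.2 CPM in wild type, and the smooth muscle and pericyte sums 2370 and 2481 CPM in Carm1 mutant and 2001 and 2304 CPM in wild type, with no marker called. Erythroid sums, at 489 and 756 CPM in Carm1 mutant and 643 and 459 CPM in wild type, overlapped. No marker of these lists was at 0 in all libraries, and their part in the histone values was not tested.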

How the data were processed

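Counts per gene from 4 libraries of mouse heart were used as the authors deposited them, as raw whole-number counts. The submitters' processing notes name FastQC, HISAT2 and the mm10 build. They name no version, and the program, annotation, strand setting and handling of multiply matching reads behind the counts are not given in the sources used. Libraries fall into groups by their genotype. GENCODE M21 names 54723 of the 54752 identifiers, and gene coordinates are from that release.

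Genes were kept with filterByExpr (edgeR 4.0.16, R 4.3.3), which left 15283, scaled by TMM (factors 1.13 and 1.16 in Carm1 mutant, 0.806 and 0.943 in wild type) and tested with the quasi-likelihood test, genotype being the only term. Values were adjusted by Benjamini-Hochberg at a threshold of 0.05, and the SE is the log2 fold change divided by the square root of F. The fit had 2 residual degrees of freedom and a common biological coefficient of variation of 0.186. In counts simulated for this comparison, the steps recovered 41 of 93 genes changed 2-fold and 94 of 97 changed 4-fold among 14802 genes. The simulation gave every gene that common variation and both groups the same spread. It therefore does not give the recovery for the sparse histone genes. An exact permutation of 2 against 2 libraries cannot give a p under 0.333, so sums are given without one. CPM are TMM-normalised, ± is the SD, and 3 counts correspond to 0.135 to 0.257 CPM of a library. Ratios are of counts per effective library with exact Clopper-Pearson intervals.

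Near-identical genes have coding sequences at least 98% identical over at least 90%, with the whole transcript used for pseudogenes. Stretches of 50 bases were compared with all GENCODE M21 transcripts on both strands. Per-library values with a test are given for genes that passed it, for the 2 most abundant genes of each family and for genes without a count in 1 group, and other genes were named after their values were seen. The members, the gene lists and the tests were chosen with earlier results of these data known.

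Alternatives were scaling by library totals or by DESeq2 size factors, no count filter, at least 1 CPM in 2 libraries, limma-voom (limma 3.58.1), DESeq2's Wald test (version 1.42.0), a block for the replicate number, near-identical genes summed, and each library left out. Further settings of the summed H2A genes were added after the data were seen.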

Additional observations from a re-analysis of the deposited data

How the results depend on the processing

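Hist1h2aj, which passed the count filter only through its Carm1 mutant counts, was called higher under each other scaling, filter and test run for it. Its log2 fold change was 8.12 to 8.27 with single libraries left out. The number of members called higher was 2 with library totals and without a count filter. With near-identical copies summed there were also 2 calls, but 1 of them was the H2A set and not a single member. Called lower were 3 members without a count filter (9.94% of all genes called in either direction), 1 with DESeq2's Wald test (11.8%), 1 with limma-voom (7.38%), 1 with the replicate block (8%), and 0 to 5 with single libraries left out, where 2.39% to 35.5% of all genes were called. The median log2 fold change of the members tested was 0.089 with library totals, 0.34 without a count filter, where all 35 were tested, and -0.59 to -0.046 with single libraries left out. The log2 ratio of the summed members, -0.38, was 0.035 with library totals, -0.031 with totals outside the mitochondrial chromosome, and -0.62 to -0.091 with single libraries left out. Single genes turned round with library totals, Hist1h1c at 0.086, Hist1h2bc at 0.13 and Hist1h1e at 0.089. Hist1h1e ranged from -0.77 to 0.11 with single libraries left out, and was positive without Carm1 mutant replicate 1. Called among the replication-independent histones were 4 genes with library totals and 0 to 5 with single libraries left out. Among the message genes it was 6 with library totals, 5 without a filter and 2 to 13 with single libraries left out. Among the chaperones it was 4 with library totals, 6 without a filter, 4 with the Wald test and 1 to 11 with single libraries left out. Among the S phase genes it was 17 with library totals, 18 without a filter and 3 to 21 with single libraries left out. The cause of these moves was not tested. With a library left out, the spread of the remaining pair stands for both groups.

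The replicate numbers gave no evidence of pairing: deviations of same-numbered libraries correlated at -0.25 over genes, with 2 pairs. With the replicate block, Hist1h4h was called lower (adjusted p 0.0271, edgeR). Depth limits most members: 24 of 35 had too few counts to test, and a floor of 3 counts in a library is 0.135 to 0.257 CPM.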
